A study of Mus musculus with 2 samples.

Results

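The lymphatic endothelium genes examined here are 8 genes taken by symbol, Prox1, Flt4, Vegfc, Lyve1, Pdpn, Ccl21a, Mmrn1 and Reln, of the 24346 genes listed. They were measured by bulk mRNA sequencing of dorsal skin wounds of C57BL/6J mice, with 1 library from WT pups and 1 library from PU.1-deficient littermates (labelled PU.1_KO, PU.1-/- in the study). Pups were wounded through the full thickness of the skin at 1 day of age, by incision in the methods and by excision in the deposited design, and the wounds were taken 24 h later. PU.1, the product of Spi1, is an ETS transcription factor needed to form myeloid and lymphoid cells, and the line is described as lacking neutrophils, macrophages, mast cells and T cells. The deficiency is in every tissue of the pup, and the number of pups behind each library is not given in the sources used here. With 1 library per genotype there is no spread between animals and no test, so that all comparisons below are between these libraries.

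Lymphatic vessels drain fluid, antigen and leukocytes from the skin. Their endothelium is specified in the embryo from venous endothelium by the transcription factor PROX1, and grows in response to VEGF-C, the ligand of the receptor VEGFR-3 that Flt4 encodes. Lymphatic capillaries display the hyaluronan receptor LYVE1 and the mucin-like podoplanin, and they secrete CCL21, which guides dendritic cells that bear the receptor CCR7 into the vessel. Some of these genes are used by other cells, since macrophages of the skin can express Lyve1, and fibroblasts and keratinocytes express Pdpn.

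Of the 8 genes, 5 had a higher level in the PU.1_KO wound and 1 a lower level by more than counting error, and 2 lay within it. Counting error was passed upwards by 24.4% and downwards by 24.2% of the 12685 genes of at least 1 FPKM with a transcript length. The higher genes were Ccl21a (2.68-fold), Reln (2.21-fold), Mmrn1 (1.84-fold), Prox1 (1.69-fold) and Flt4 (1.48-fold). Lyve1 was at 56.1% of its WT level, and Vegfc and Pdpn lay within their counting error of the WT level. At a ratio of at least 2, with values below 0.1 FPKM (fragments per length of exon and per depth of the library) raised to 0.1, 2 of the 8 genes were higher and 0 were lower. The same rule was passed upwards by 2.32% and downwards by 4.34% of all genes listed. All 8 genes reached 1 FPKM in 1 or both libraries, and among the 13237 genes that did, 1.71% were at least 2-fold higher and 4.45% at least 2-fold lower. At a ratio of at least 1.5, 4 of the 8 genes were higher, and 1 was lower, against 5.45% and 8.17% of the genes that reached 1 FPKM.

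**Figure D1:**
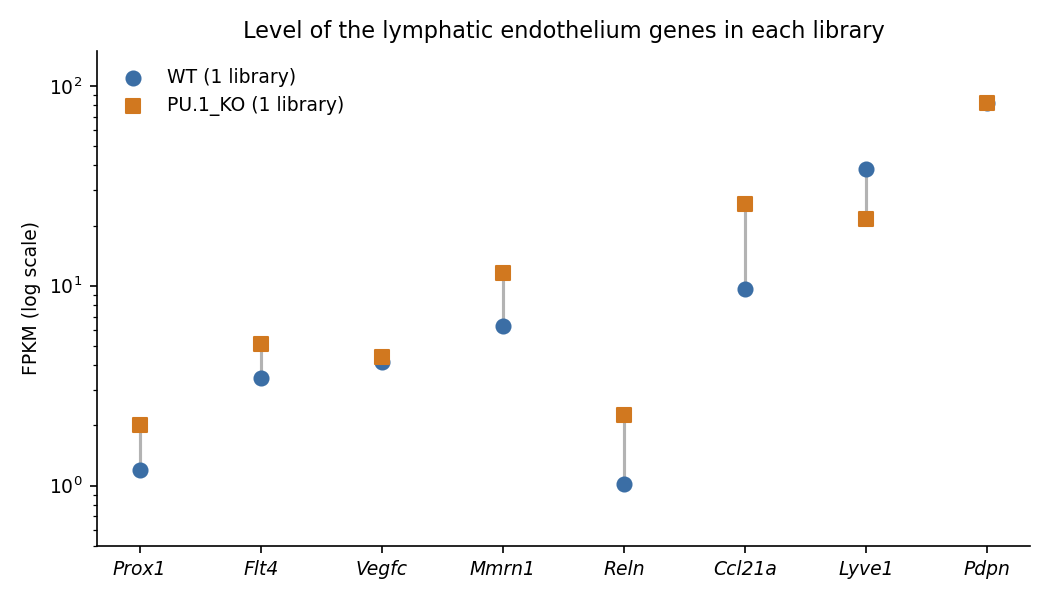
Level of each of the 8 genes in FPKM (log axis) in the WT library (circle) and the PU.1_KO library (square), with a grey line joining the libraries. Prox1, Flt4, Mmrn1, Reln and Ccl21a lie higher in the PU.1_KO library, Lyve1 lies lower (38.3 against 21.5 FPKM), and the symbols of Vegfc and Pdpn nearly coincide.

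The libraries were checked first at the deleted gene. Spi1 was at 35.4 FPKM in WT and at 1.45 FPKM in PU.1_KO, or 4.12% of the WT level. Depth was estimated at about 13800000 fragments for WT and 15900000 for PU.1_KO from the steps between low values, and read numbers of single genes were estimated from it and from GENCODE transcript lengths. The intervals given with ratios below are exact binomial (Clopper-Pearson) intervals at 95% from these estimated reads and cover counting error only, not the difference between animals. Such an interval lay above 1 for 24.4% and below 1 for 24.2% of the 12685 genes of at least 1 FPKM that had a transcript length, so that an interval away from 1 is common in this pair of libraries. Xist, which is transcribed from an inactive X, was listed at 0 in WT and at 9.48 FPKM in PU.1_KO, and the Y-linked Ddx3y at 20.97 FPKM in WT and 0 in PU.1_KO, so that sex and genotype cannot be told apart here.

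Prox1, the transcription factor that sets lymphatic identity, lies on chromosome 1 of GRCm38 (the assembly of mm10) from 190118035 to 190170714 on the minus strand. Its level was 1.19 FPKM in WT and 2.01 FPKM in PU.1_KO. Both values are low, but the transcript of 7913 nt makes them worth about 127 and 246 reads, and the ratio of 1.69 had a counting interval from 1.36 to 2.11. Prox1 was the lowest of the 8 genes but 1 in the WT library and the lowest of all 8 in the PU.1_KO library. Its log2 ratio of 0.76 was above that of 96.7% of the genes that reached 1 FPKM. GENCODE places the antisense genes Prox1os and Gm28172 over Prox1, and whether the counting used strand is not given in the sources used here.

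Flt4, on chromosome 11 from 49609263 to 49652739, encodes VEGFR-3, the receptor through which VEGF-C drives lymphatic growth. It had 3.45 FPKM in WT and 5.11 FPKM in PU.1_KO, a ratio of 1.48 (1.28 to 1.72) from about 289 and 491 reads. Prox1 and Flt4 were higher by a similar factor, so that the ratio of Flt4 to Prox1 within a library was 2.90 in WT and 2.54 in PU.1_KO.

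Vegfc, on chromosome 8 from 54077606 to 54187096, encodes the growth factor itself, which is made mostly by cells around the vessel. It had 4.14 FPKM in WT and 4.39 FPKM in PU.1_KO. This ratio of 1.06 had an interval from 0.834 to 1.35, which holds 1, from about 129 and 157 reads. The ligand lay above its receptor in the WT library, with 1.20 FPKM of Vegfc for each FPKM of Flt4, and below it in the PU.1_KO library, with 0.860. No counting interval was computed for these ratios within a library, so the order of ligand and receptor is uncertain in both.

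Mmrn1, on chromosome 6 from 60924976 to 60989378, encodes multimerin 1, a large secreted protein of endothelium and platelets that is used as a lymphatic marker. It had 6.26 FPKM in WT and 11.5 FPKM in PU.1_KO, a ratio of 1.84 (1.63 to 2.09) from about 370 and 783 reads. There were 5.26 FPKM of Mmrn1 for each FPKM of Prox1 in WT and 5.73 in PU.1_KO, for which no counting interval was computed. Among the markers of platelets and megakaryocytes, which also make multimerin 1, Itga2b had 3.19 and 3.83 FPKM, Gp9 0.362 and 0.420 FPKM and Gp1bb 5.25 and 4.99 FPKM in WT and PU.1_KO. The other 2 genes of that list, Pf4 and Ppbp, were lower, from 635 to 2.35 FPKM and from 72.0 to 0.217 FPKM.

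Reln, on chromosome 5 from 21884454 to 22344702, encodes reelin, a secreted glycoprotein known from the migration of neurons that collecting lymphatic vessels also produce. It had 1.02 FPKM in WT and 2.25 FPKM in PU.1_KO, a ratio of 2.21 (1.84 to 2.67) from about 162 and 411 reads. In GENCODE it is overlapped on the same strand by Dnaja1-ps, Gm16113 and Gm19666, and on the opposite strand by Gm10475, Gm16110, Gm16111 and Gm16112, so that reads could be shared with or without strand. Reln and Ccl21a were the 2 genes past the 2-fold line, and with a pseudocount of 1 FPKM the log2 ratio of Reln went from 1.14 to 0.69, since its levels are close to 1 FPKM. Markers of Schwann cells and nerve lay on the same side. All 5 of them were above their WT level in PU.1_KO, beside 6526 of the 13237 genes that reached 1 FPKM. Their log2 ratios ran from 0.38 to 1.25, and their summed level was 20.4 FPKM in WT and 31.0 FPKM in PU.1_KO. The highest in WT was Sox10, a regulator of Schwann cells, with 7.25 and 9.44 FPKM in WT and PU.1_KO. The part of nerve in the value of Reln was not tested.

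Ccl21a, on chromosome 4 from 42772860 to 42773993, encodes a form of CCL21, the chemokine that binds CCR7. Which form the lymphatic vessels of these wounds make was not tested. Ccl21a had 9.61 FPKM in WT and 25.8 FPKM in PU.1_KO, a ratio of 2.68 (2.11 to 3.46) and the largest upward ratio of the 8 genes. The transcript is short, at 870 nt, so that about 89 and 275 reads stand behind these levels. The smallest pair of whole reads with this ratio is 133 and 410, which is above that estimate. The read numbers are therefore uncertain, by an amount that this pair does not fix. GENCODE places 4930578G10Rik over Ccl21a on the opposite strand. Its log2 ratio of 1.42 was above that of 99.5% of the genes that reached 1 FPKM. Against Prox1 there were 8.07 FPKM of Ccl21a for each FPKM of Prox1 in WT and 12.8 in PU.1_KO.

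**Figure D2:**
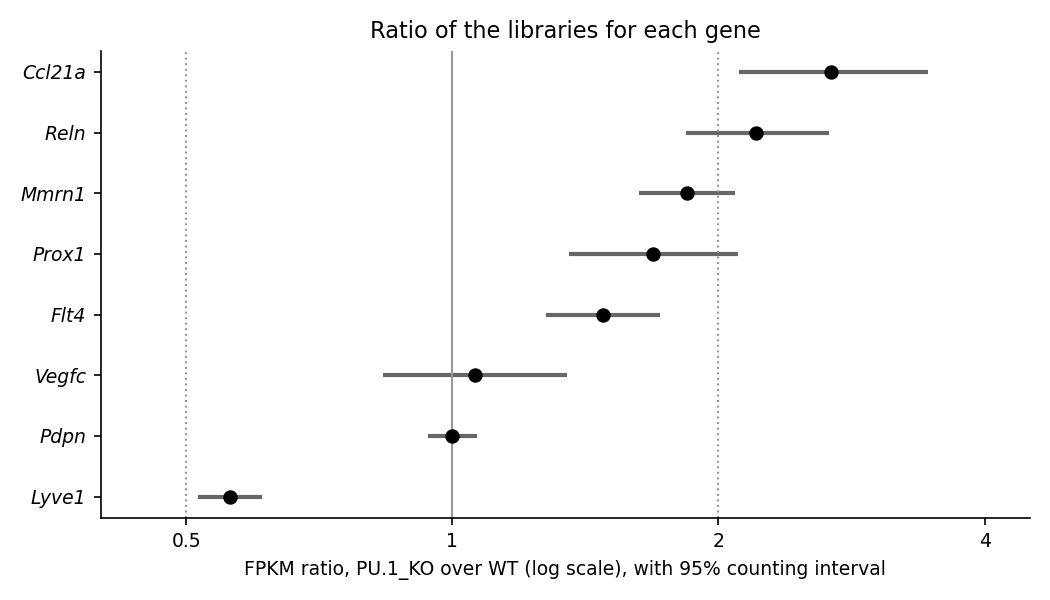
FPKM ratio of PU.1_KO over WT (log axis) for each gene, with its exact binomial counting interval at 95% as a grey bar; dotted lines mark 2-fold lower and 2-fold higher. The intervals of Ccl21a, Reln, Mmrn1, Prox1 and Flt4 lie above 1, that of Lyve1 lies below 1, and those of Vegfc and Pdpn hold 1.

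The mouse genome holds several copies of the Ccl21 gene, and their sequence is shown because it bears on how the reads of Ccl21a were assigned. The coding sequence of 402 bases differs between Ccl21a and Ccl21b at 2 positions, T84A and C194T, with Ccl21a first and positions counted from 1 at the start codon, which leaves 99.5% identity. The second of these is in codon 65. The copies Gm10591, Gm13304 and Gm21541 carry the same substitutions as Ccl21b in GENCODE. Gm10591 and Gm21541 were not found among the genes listed, so they have no level here. Bases 72 to 206 of the coding sequence are given here from GENCODE M21 transcripts, 5′ to 3′, with the differing bases in capitals. In Ccl21a they come from chr4:42773531-42773759 on the minus strand, across an intron.
Ccl21a: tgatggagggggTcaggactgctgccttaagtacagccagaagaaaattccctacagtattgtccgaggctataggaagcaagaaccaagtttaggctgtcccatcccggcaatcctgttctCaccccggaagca
Ccl21b: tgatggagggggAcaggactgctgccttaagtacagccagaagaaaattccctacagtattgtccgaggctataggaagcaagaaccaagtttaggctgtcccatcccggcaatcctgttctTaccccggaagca
A read of 75 bases can start at 328 positions of this coding sequence, and 178 of these starts (54.3%) give a read that covers neither differing base. Ccl21b, Ccl21c and Gm13304 were listed at 0 in both libraries, and Gm1987 at 0.181 FPKM in WT and 0.165 FPKM in PU.1_KO. How reads that match several copies were divided is not given in the sources used here, so the level of Ccl21a is uncertain as that of a single copy.

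Lyve1, on chromosome 7 from 110850607 to 110863239, encodes a hyaluronan receptor of lymphatic capillaries that subsets of macrophages share. Its level was 38.3 FPKM in WT and 21.5 FPKM in PU.1_KO, a ratio of 0.561 (0.516 to 0.610) from about 1428 and 920 reads. It was the only gene of the 8 whose counting interval lay below 1, and its log2 ratio of −0.83 was above that of 5.35% of the genes that reached 1 FPKM. For each FPKM of Prox1 there were 32.2 FPKM of Lyve1 in WT and 10.7 in PU.1_KO. In order of level, Lyve1 was second among the 8 genes in WT and stood behind Ccl21a in PU.1_KO.

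Markers of macrophages were also lower in PU.1_KO, with a median log2 ratio of −6.96 beside −0.83 for Lyve1. Of the 12 listed, 11 were at least 2-fold lower in PU.1_KO, and their summed level was 691 FPKM in WT and 6.13 FPKM in PU.1_KO. The highest in WT were Tyrobp (196 FPKM) and C1qb (123 FPKM), both among the 6 listed at 0 in PU.1_KO, with Adgre1, C1qa, C1qc and Timd4. Genes of resident skin macrophages, the kind known to carry LYVE1, were lower in PU.1_KO, with Mrc1 at 53.6 and 0.417 FPKM, Cd163 at 29.0 and 0.0448 FPKM and Folr2 at 17.3 and 0.145 FPKM. The highest marker in PU.1_KO was Cd68, a lysosomal protein that other cells also make, at 4.12 FPKM from about 68 reads, beside 43.9 FPKM in WT. The part of the macrophages in the lower Lyve1 value was not tested, and fewer cells of a type cannot be told apart from less RNA per cell in bulk samples.

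Pdpn, on chromosome 4 from 143267431 to 143299564, encodes podoplanin, a membrane mucin of lymphatic endothelium, fibroblasts and basal keratinocytes. It was the most abundant of the 8 genes in both libraries, with 81.7 FPKM in each. The log2 ratio was −0.00, and the ratio had an interval from 0.938 to 1.06 with the transcript of 1817 nt, and from 0.897 to 1.11 with the shorter transcript of 762 nt. Of the 13237 genes that reached 1 FPKM, 6526 were above their WT level. All 8 fibroblast markers were above their WT level, by 0.09 to 0.54 on the log2 scale, as were all 8 keratinocyte markers, by 0.07 to 0.61. The highest of these were the collagen gene Col3a1 (1042 and 1110.2 FPKM in WT and PU.1_KO) and the proteoglycan gene Dcn (690 and 959 FPKM), and the keratin genes Krt14 (4659 and 5195 FPKM) and Krt10 (2291 and 2602 FPKM). The part of these cells in the level of Pdpn was not tested. Against Prox1, Pdpn had 68.6 FPKM for each FPKM in WT and 40.6 in PU.1_KO.

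The levels were also set against general endothelium, within each library, which removes the scaling between libraries. The 14 endothelial markers had a median log2 ratio of 0.15 and ranged from −0.26 to 0.43, and 0 of them passed 2-fold in either direction. Mcam, an adhesion molecule of vessels, had 71.0 and 65.5 FPKM in WT and PU.1_KO, and Pecam1, the junction protein CD31, had 65.3 and 78.7 FPKM. The log2 ratios of Ccl21a, Mmrn1, Reln, Prox1 and Flt4, from 0.57 to 1.42, all lay above the highest endothelial marker, Icam2 at 0.43. As a ratio, Icam2 had a counting interval from 1.06 to 1.71. It overlapped those of Flt4 (1.28 to 1.72), Prox1 (1.36 to 2.11) and Mmrn1 (1.63 to 2.09), so their order against Icam2 is uncertain. For each 100 FPKM of Pecam1 there were 1.82 FPKM of Prox1 in WT and 2.56 in PU.1_KO. The same measure was 5.28 and 6.49 for Flt4, 9.58 and 14.6 for Mmrn1, 1.56 and 2.86 for Reln and 14.7 and 32.8 for Ccl21a. Lyve1 went from 58.7 to 27.3 FPKM for each 100 FPKM of Pecam1, and Vegfc from 6.34 to 5.58. With Cdh5, the cadherin of endothelial junctions, in place of Pecam1 the factors were similar, at 1.37 for Prox1, 1.20 for Flt4, 1.49 for Mmrn1, 1.79 for Reln and 2.17 for Ccl21a. No counting interval was computed for the levels set against Pecam1 or Cdh5.

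**Figure D3:**
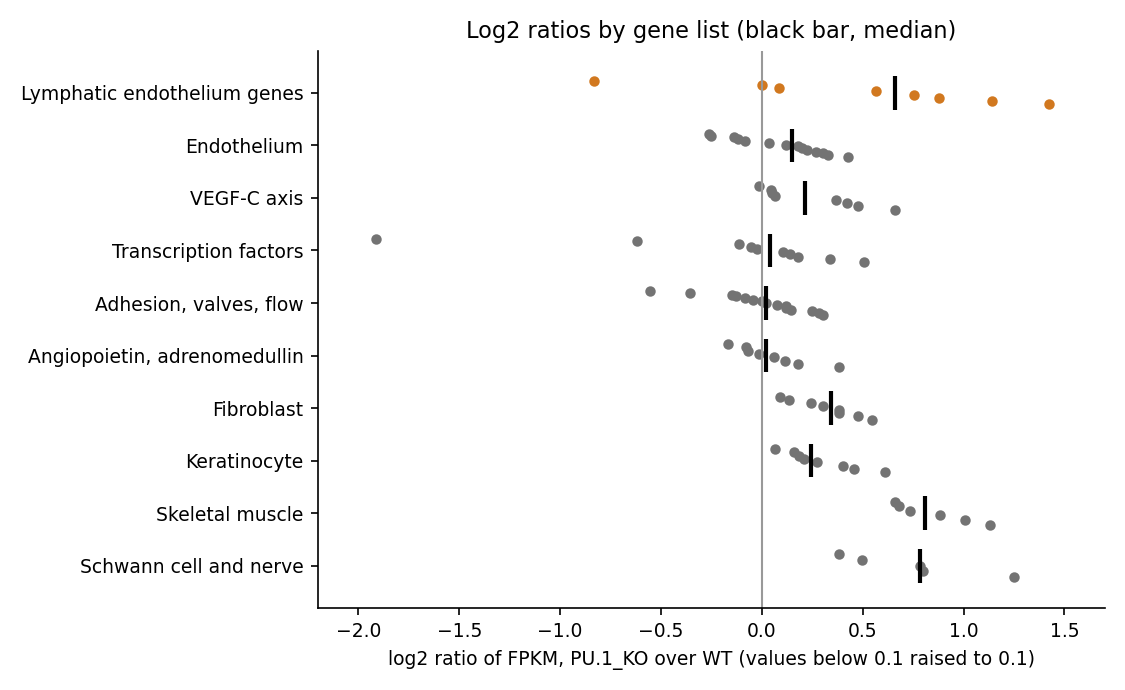
Log2 ratio of FPKM (PU.1_KO over WT) for each gene of the named lists, as points, with the median of each list as a black bar. The 8 lymphatic endothelium genes (top row) spread from −0.83 to 1.42 with a median of 0.66, while the endothelial markers keep between −0.26 and 0.43.

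A wider list held other genes of lymphatic endothelium and its signals. Of 65 such genes, 63 were listed, of which 5 (7.94%) were at least 2-fold lower and 0 at least 2-fold higher, against 4.34% and 2.32% of all genes listed. At 1.5-fold, 8 were lower and 2 higher, against 7.67% and 5.79% of all genes listed, and at 3-fold 3 were lower and 0 higher, against 2.8% and 0.616%. Their median log2 ratio was 0 over the 63, as over all genes listed. Over the 53 that reached 1 FPKM it was 0.04, beside −0.00 over all genes that did. Among these 53, 4 were at least 2-fold lower and 0 at least 2-fold higher, against 4.45% and 1.71% of the genes that reached 1 FPKM. The lower genes of the 63 were Gata2, Syk, Lcp2, Stab1 and Ccr7, each of which blood cells also use. Of these, Ccr7 was below 1 FPKM in both libraries.

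In the VEGF-C axis, 0 of 8 genes passed 2-fold. Vegfd, the other ligand of VEGFR-3 (listed under its older symbol Figf), had 7.78 and 8.07 FPKM in WT and PU.1_KO. Nrp2, a co-receptor for VEGF-C, had 18.1 and 18.9 FPKM. Kdr, the main VEGF receptor of blood endothelium, had 8.91 and 11.5 FPKM, and the ligand Vegfa had 13.2 and 20.8 FPKM, a ratio of 1.58 (1.43 to 1.75) and the largest of the axis.
Among 10 transcription factors, 1 was lower. Gata2, which lymphatic valves and mast cells use, went from 5.06 to 1.34 FPKM, a ratio of 0.266 (0.201 to 0.347). Sox18, which acts upstream of Prox1 in the embryo, had 22.7 and 22.3 FPKM. Nr2f2, the COUP-TFII partner of PROX1, had 3.92 and 5.57 FPKM, a ratio of 1.42 (1.20 to 1.69) close to that of Flt4. Maf went from 19.3 to 12.5 FPKM and Nfatc1 had 12.7 and 12.3 FPKM. Foxc2, the factor of lymphatic valves, was low, with 0.573 and 0.723 FPKM from about 20 and 29 reads.

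Of 15 genes of adhesion, valves and flow, 0 passed 2-fold, with log2 ratios from −0.55 to 0.30. Cd9 had 383 and 388 FPKM, Gja1 196 and 213 FPKM and Ephb4 27.5 and 34.0 FPKM in WT and PU.1_KO. Itga9, the integrin subunit of lymphatic valves, had 5.60 and 6.19 FPKM. Stab2, a scavenger receptor of sinusoidal and lymphatic endothelium, was at 0.0182 FPKM in WT and listed at 0 in PU.1_KO. Of 8 angiopoietin and adrenomedullin genes, 0 passed 2-fold, with log2 ratios from −0.17 to 0.38. Ramp2 had 31.7 and 30.3 FPKM, Tie1 15.7 and 17.8 FPKM and Angpt2 13.5 and 14.6 FPKM.

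The CCL21 axis outside Ccl21a held 2 genes that reached 1 FPKM, Ackr4 and Ccl19. The receptor gene Ccr7 was near the limit of detection, at 0.294 FPKM in WT and 0.0366 FPKM in PU.1_KO, about 7 reads and 1 read. Ccl19, the other ligand of CCR7, had 6.26 and 12.01 FPKM, a ratio of 1.92 (1.35 to 2.78). Ackr4, a scavenging receptor for both chemokines, had 11.2 and 12.2 FPKM. Of the 7 genes listed on this axis, 1 was at least 2-fold lower and 0 were higher.

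Among 7 partners of podoplanin, 2 were at least 2-fold lower. Lcp2, an adaptor of blood cells downstream of the podoplanin receptor of platelets, went from 8.83 to 0.0999 FPKM, and the kinase gene Syk from 8.57 to 2.81 FPKM. The cytoskeletal linkers Ezr and Msn had 161 and 172 FPKM and 140 and 121 FPKM, and Cd44 had 98.3 and 79.6 FPKM. The reelin receptors Vldlr and Lrp8 had 3.13 and 2.58 FPKM and 2.38 and 2.93 FPKM, and the adaptor gene Dab1 0.850 and 1.08 FPKM, so that 0 of 3 passed 2-fold. Of 5 genes of hyaluronan, the ligand of LYVE1, covering its synthesis and related receptors, 1 receptor gene was at least 2-fold lower. This was Stab1, which macrophages and lymphatic endothelium share, and it went from 9.49 to 3.40 FPKM. The synthase genes Has3 and Has1 had 19.8 and 19.5 FPKM and 11.3 and 10.6 FPKM.

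Markers of other cells that a wound can hold gave the following. Skeletal muscle markers were all above their WT level, with log2 ratios from 0.66 to 1.13 over 6 genes and a summed level of 5294 FPKM in WT and 9376 FPKM in PU.1_KO, and the log2 ratios of Prox1 (0.76) and Mmrn1 (0.88) lay in that range. The highest in WT were Acta1, the actin of muscle, with 3224 and 5955 FPKM, and Tnnt3, a troponin, with 1007 and 1588 FPKM. Their part in the values of the lymphatic genes was not tested. Of the smooth muscle and pericyte markers, 3 of 5 were below their WT level. Of the 13237 genes that reached 1 FPKM, 6711 were below their WT level and 6526 above it. Neutrophil markers were at least 2-fold lower in 6 of 7 and T cell markers in 3 of 5, the latter with a summed level of 2.88 FPKM in WT.

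Upstream sequences are shown for the letters that ETS factors such as PU.1 are known to bind. Binding of PU.1 at these genes was not tested. RefSeq (GRCm38.p6) gave the 250 bases before the start for 7 of the 8 genes, in 8 windows. These RefSeq starts are not always those of GENCODE, and the windows of Mmrn1 and Flt4 and the other window of Prox1 lie inside the GENCODE gene spans given above. The purine-rich ETS motif GAGGAA, searched on both strands, was in 4 of the 8 windows, and in 23.3% of all 32817 windows of that length. These 4 are the windows of 3 genes, Prox1 (both of its windows), Ccl21a and Mmrn1. The SOX motif AACAAT was in that of Mmrn1 (9.42% of all windows), and the nuclear receptor motif AGGTCA in that of Pdpn (14.0%). These matches are descriptions of the letters and not sites. The windows are given 5′ to 3′ on the strand of the gene, with GAGGAA or its reverse complement in capitals, for Prox1 (chr1:190170828-190171077, minus strand, 1 of its 2 start sites) and Ccl21a (chr4:42773992-42774241, minus strand), whose windows lie next to the GENCODE gene start.
Prox1: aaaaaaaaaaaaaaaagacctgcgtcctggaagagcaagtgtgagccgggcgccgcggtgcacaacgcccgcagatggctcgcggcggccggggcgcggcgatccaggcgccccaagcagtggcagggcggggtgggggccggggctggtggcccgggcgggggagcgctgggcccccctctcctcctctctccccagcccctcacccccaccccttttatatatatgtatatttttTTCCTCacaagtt
Ccl21a: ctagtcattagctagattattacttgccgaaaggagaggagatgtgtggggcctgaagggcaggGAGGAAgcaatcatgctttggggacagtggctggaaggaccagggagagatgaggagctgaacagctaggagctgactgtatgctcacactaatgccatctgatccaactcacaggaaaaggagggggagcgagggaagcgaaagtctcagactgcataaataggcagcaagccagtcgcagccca
Each of these windows holds 1 match. The windows of Flt4 and Reln, which were also higher in PU.1_KO, hold 0, as do those of Vegfc and Pdpn.

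**Figure D4:**
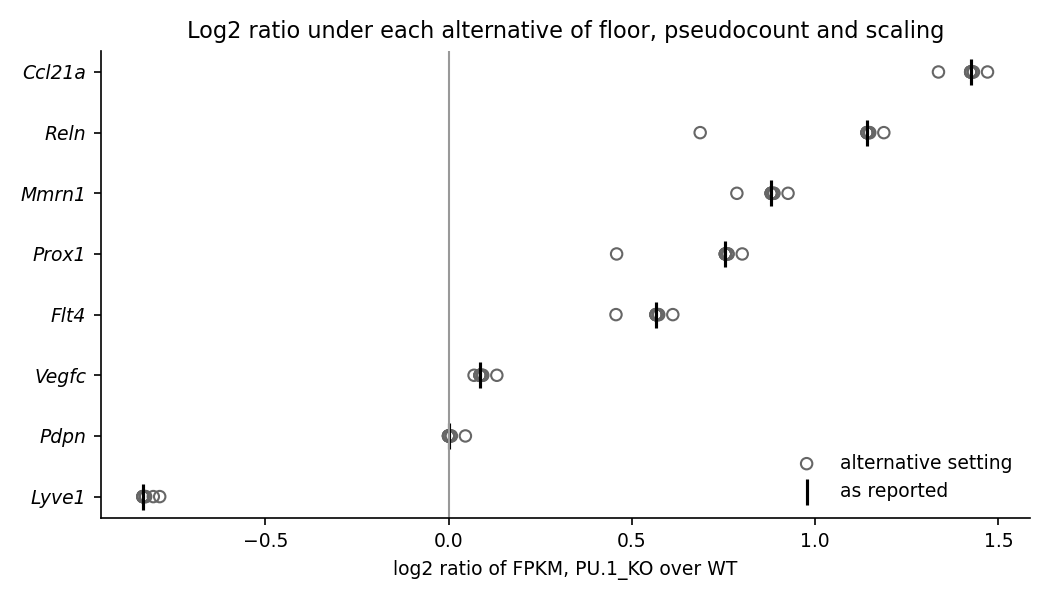
Log2 ratio of each gene (PU.1_KO over WT) as reported (black bar) and under the alternative floors, pseudocount, scalings, filter and whole read numbers (open circles). Ccl21a, Reln, Mmrn1, Prox1 and Flt4 stay above 0 and Lyve1 below 0 in all 8 settings, with the widest spread for Reln, from 0.69 to 1.19. The floors, pseudocount, filter and whole read numbers could not turn a sign for these genes.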

How the data were processed

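Skin wounds of WT and PU.1_KO pups were compared at 24 h, with 1 library per genotype. The authors prepared stranded mRNA libraries, read 75 bases from a single end, mapped to mm10 and deposited FPKM values computed with Cuffnorm, which scales libraries to each other. The submitters' processing notes name TopHat2 2.1.1, Bowtie2 2.2.8, SAMtools 0.1.18 and Cuffdiff 2.2.1, with no roles. The gene annotation is not given in the sources used here. A ratio between libraries therefore depends on that scaling.

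Values below 0.1 FPKM were raised to 0.1 and the ratio of PU.1_KO over WT was taken. One read was worth 1.15 times more FPKM in WT, the commonest ratio of low genes (457 of 4542 genes below 2 FPKM in WT). Depth was the commonest value (357 genes) over 1041 genes with a single transcript of at least 2000 nt whose values were small whole multiples of a read, with transcript length less 200 nt, the default fragment length of Cufflinks. The longest transcript was used for read numbers (found for 89.1% of genes). GENCODE M21 and RefSeq on GRCm38, the assembly of mm10, gave positions and sequences. Lists were described by counts and medians, without a test. The lists covered the VEGF-C axis, transcription factors, adhesion, valves and flow, the CCL21 axis, podoplanin partners, angiopoietin and adrenomedullin signals, reelin receptors, hyaluronan genes, and markers of endothelium, macrophages, neutrophils, T cells, fibroblasts, keratinocytes, skeletal muscle, Schwann cells, smooth muscle and platelets.

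The 8 genes and the lists were chosen with earlier results of these data known. By the rule for named genes, the text names the 8 genes, Spi1, the copies of Ccl21, the listed pathway genes past 2-fold with at least 1 FPKM, the 3 highest WT genes of each pathway list and the 2 highest WT genes of each marker list. Vegfd, Nr2f2, Foxc2, Itga9, Stab2, Mrc1, Cd163, Folr2, Adgre1, C1qa, C1qc, Timd4, Cd68, Icam2, Cdh5, Itga2b, Gp9, Gp1bb, Xist and Ddx3y were named after their values were seen. Markers of neutrophils, T cells and smooth muscle are given as lists only. A gene that the rule names is not reported here. The functions were tested on simulated data. Python 3.11.15 was used, with the intervals from scipy 1.17.1, tables handled in pandas 2.3.3 and numpy 2.4.6, and plots drawn by matplotlib 3.10.9.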

Additional observations from a re-analysis of the deposited data

How the results depend on the processing

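The log2 ratios of Ccl21a, Reln, Mmrn1, Prox1, Flt4, Vegfc and Lyve1 kept their sign under all 8 alternatives of floor, pseudocount, scaling, filter and whole read numbers. Most of these settings could not turn a sign. The floors and the filter left the ratios as they were, since all 8 genes were above 1 FPKM in both libraries. A pseudocount keeps the sign of a ratio, and the whole read numbers were chosen to give the same ratio. The log2 ratio of Pdpn, near 0, ran from −0.00 to 0.05 and turned sign in 3 of the 8. The median of the 8 genes lay between 0.46 and 0.71 and that of the endothelial markers between 0.14 and 0.20. A fold threshold of 1.5 gave 4 higher and 1 lower of the 8 genes, and 2 higher and 8 lower pathway genes, and a threshold of 3 gave 0 higher of the 8 and 3 lower pathway genes. Of all genes listed, 5.79% were higher and 7.67% lower at 1.5-fold, and 0.616% were higher and 2.8% lower at 3-fold. With a pseudocount of 1 FPKM, 1 of the 8 genes was 2-fold higher, since Reln fell to 0.69 (0.54 relative to the endothelial markers). Rescaling shifted all log2 ratios by at most 0.05. No library could be left out with 1 per genotype. No paired analysis was possible because the genotypes share only 1 replicate number.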
